A study of Mus musculus with 9 samples.

Results

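The 10 genes described here belong to the cellular response to low oxygen and to the breakdown of glucose: Hif1a, Vegfa, Adm, Slc2a3, Hk2, Hk3, Pfkfb3, Pgk1, Ldha and Pdk1. They were picked by gene symbol from a table of 55401 genes, and each symbol matched a single row. RNA sequencing was done on basal ganglia tissue of adult male C57BL mice, wildtype by label, in 9 libraries of 3 groups. In the ICH + Laminaria group (n = 3), intracerebral hemorrhage (ICH) was followed by an agent that the labels call Laminaria, and the libraries are labelled day 4, day 5 and day 6. In the ICH group (n = 3), hemorrhage was followed by the vehicle of that agent, at day 3. In the sham group (n = 3), the needle was inserted but no blood was given, at day 3. Hemorrhage was modelled by injecting autologous whole blood, so both hemorrhage groups carry a blood clot that sham tissue lacks. What this agent is was not given in the sources used here, and the methods of the study describe the sequencing only as a comparison of hemorrhage with sham. By label every treated library is of a later day than its controls, so treatment and day cannot be told apart. The 3 treated libraries carry consecutive days, and whether these labels are the true sampling days or an error made in filling them in could not be checked. Whether the libraries represent different animals is not stated, and the p-values therefore measure only the spread between these libraries.

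When oxygen is low, the prolyl hydroxylases that mark HIF-1 alpha for destruction slow down, and the stabilized protein pairs with ARNT and binds short DNA motifs known as hypoxia response elements. Its targets raise glucose uptake, the steps of glycolysis and lactate production, restrain the oxidation of pyruvate in mitochondria, and release peptides that act on blood vessels. Control of HIF-1 alpha is largely exerted on the protein, which RNA counts do not measure, and hexokinase and glucose transporter genes are also used at different levels by neurons, glia and myeloid cells.

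The stretches of DNA just before the start sites of these genes are shown first because they hold the letters that HIF-1 is known to recognize. The motifs ACGTG and GCGTG were searched on both strands in the 250 bases before each RefSeq start site on GRCm38.p6, and an E-box, CACGTG, contains ACGTG on both strands. Of the 10 genes, 9 had promoter entries, with 13 start sites in all. No entry for Slc2a3 was matched. A match to either motif lay in 11 of the 13 windows, against 38.6% of 32851 windows of the same length. Each of the 9 genes had a match in at least 1 window, against 41.5% of 27025 genes. By motif, ACGTG was found in 8 of the 13 windows and in 16.6% of all windows, and GCGTG in 5 of the 13 and in 28.2% of all windows. A match is a run of letters and not a site of binding. In the stretches below, written 5′ to 3′ on the strand of the gene, capitals mark a match on either strand, so that CACGT and CACGC are the motifs read from the opposite strand.
Hif1a, chr12:73907752-73907811, plus strand: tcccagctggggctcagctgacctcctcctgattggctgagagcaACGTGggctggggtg
Hk2, chr6:82774492-82774551, minus strand: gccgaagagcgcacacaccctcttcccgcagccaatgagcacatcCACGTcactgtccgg
Hk3, chr13:55021527-55021586, minus strand: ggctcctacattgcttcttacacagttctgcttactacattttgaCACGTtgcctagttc
Pdk1, chr2:71873101-71873160, plus strand: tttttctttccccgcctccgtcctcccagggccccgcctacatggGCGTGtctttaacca
Ldha, chr7:46845725-46845784, plus strand: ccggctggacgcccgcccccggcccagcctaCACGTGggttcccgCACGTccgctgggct
Pgk1, chrX:106186924-106186983, plus strand: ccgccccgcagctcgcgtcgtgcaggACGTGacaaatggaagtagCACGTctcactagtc
Adm, chr7:110627558-110627617, plus strand: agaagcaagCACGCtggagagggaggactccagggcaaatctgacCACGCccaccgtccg
These 7 genes include 4 that rose after hemorrhage (Hif1a, Hk2, Hk3 and Pdk1) and 3 that did not pass the test (Ldha, Pgk1 and Adm), so a match was present in genes of both kinds. Vegfa and Pdk1 each had 1 window without a match (start sites at 46032377 and 71874904) and another window with one.

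The libraries held 51307799 to 74649716 counts. The low counts in each library advanced in steps of 3.72 to 3.76 and not of 1, so the deposited counts are larger than numbers of fragments, and no counting interval is given. CPM, counts scaled to library size with TMM factors, are used below to compare libraries for 1 gene, and FPKM, which also takes account of gene length, to compare genes. Fold changes come from the edgeR quasi-likelihood test on the 6 libraries of a comparison, with p adjusted by the Benjamini-Hochberg method over all genes whose FPKM averaged 0.5 or more, and a gene is said to rise or fall when its adjusted p is under 0.05. All 10 genes passed that filter in every comparison. Markers of several cell types differed between the groups. The sum of 10 striatal neuron genes, which mark the labelled tissue, was 2221 to 3972 in ICH + Laminaria, 2354 to 3434 in ICH and 3252 to 5083 in sham libraries, and all of these genes had counts in every group. The summed CPM of 10 pan-myeloid genes was 768.8 to 1486 in ICH + Laminaria, 857.9 to 1763 in ICH and 312.2 to 518.0 in sham libraries. The sum of 8 pan-neuronal genes was 2956 to 4316 in ICH + Laminaria, 2984 to 4245 in ICH and 4693 to 5201 in sham libraries. Choroid plexus genes varied widely within groups (93.1 to 2421 CPM in ICH + Laminaria, 1839 to 4907 CPM in ICH and 121.4 to 1335 CPM in sham libraries), and none of these 6 genes passed the edgeR test of ICH against sham (4 with an unadjusted p under 0.05, 3 by DESeq2). Erythroid genes, hemoglobin genes among them, summed to 24.4 to 76.2 CPM in ICH + Laminaria, 26.6 to 143.0 CPM in ICH and 12.46 to 16.54 CPM in sham libraries, and Slc4a1 had no counts in sham libraries. Of these 6 genes 4 were tested in ICH against sham, and all 4 were higher without overlap, with an unadjusted p under 0.05 and a DESeq2 call but none by the edgeR test. The part of blood cells in the values of the 10 genes was not tested. In bulk tissue, fewer cells of a type and less RNA per cell cannot be told apart.

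Hemorrhage against sham asks how the pathway stood when blood was present in the tissue and no agent had been given. Of the 10 genes, 4 rose in ICH libraries (Hk3, Hk2, Hif1a and Pdk1), 1 fell (Slc2a3) and 5 did not pass the test (Ldha, Vegfa, Pfkfb3, Adm and Pgk1). Hk3 and Hk2, 2 hexokinases, moved most, at 6.46-fold and 3.75-fold. Over all 16414 genes tested, 10.6% passed the edgeR test, 7.42% upward and 3.16% downward. The median log2 fold change of the 10 genes was 0.37, against 0.01 over all genes tested. The 3 ICH and 3 sham libraries did not overlap for 7 of the 10 genes, 5 of them higher and 2 lower in ICH, while 36.6% of all genes did not overlap (18.5% higher and 18.1% lower). An unadjusted p under 0.05 was found for 7 of the 10 genes and for 29.5% of all genes, and DESeq2 called 7 of the 10 and 21.6% of all genes. The 10 genes were chosen with earlier results of these data known, so their contrast with all genes is not independent evidence. The calls rested on the full set of libraries. With ICH replicate 2 or 3, or sham replicate 1 or 2, left out, none of the 10 genes passed the edgeR test, and at most 2 genes of the whole table did, although 3762 to 4092 had an unadjusted p under 0.05. Without sham replicate 3 only Hk3 passed, among 472 genes in all (2.88%). Without ICH replicate 1 all 5 genes still passed, and Ldha and Vegfa passed as well, among 2741 genes (16.7%).

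**Figure D1:**
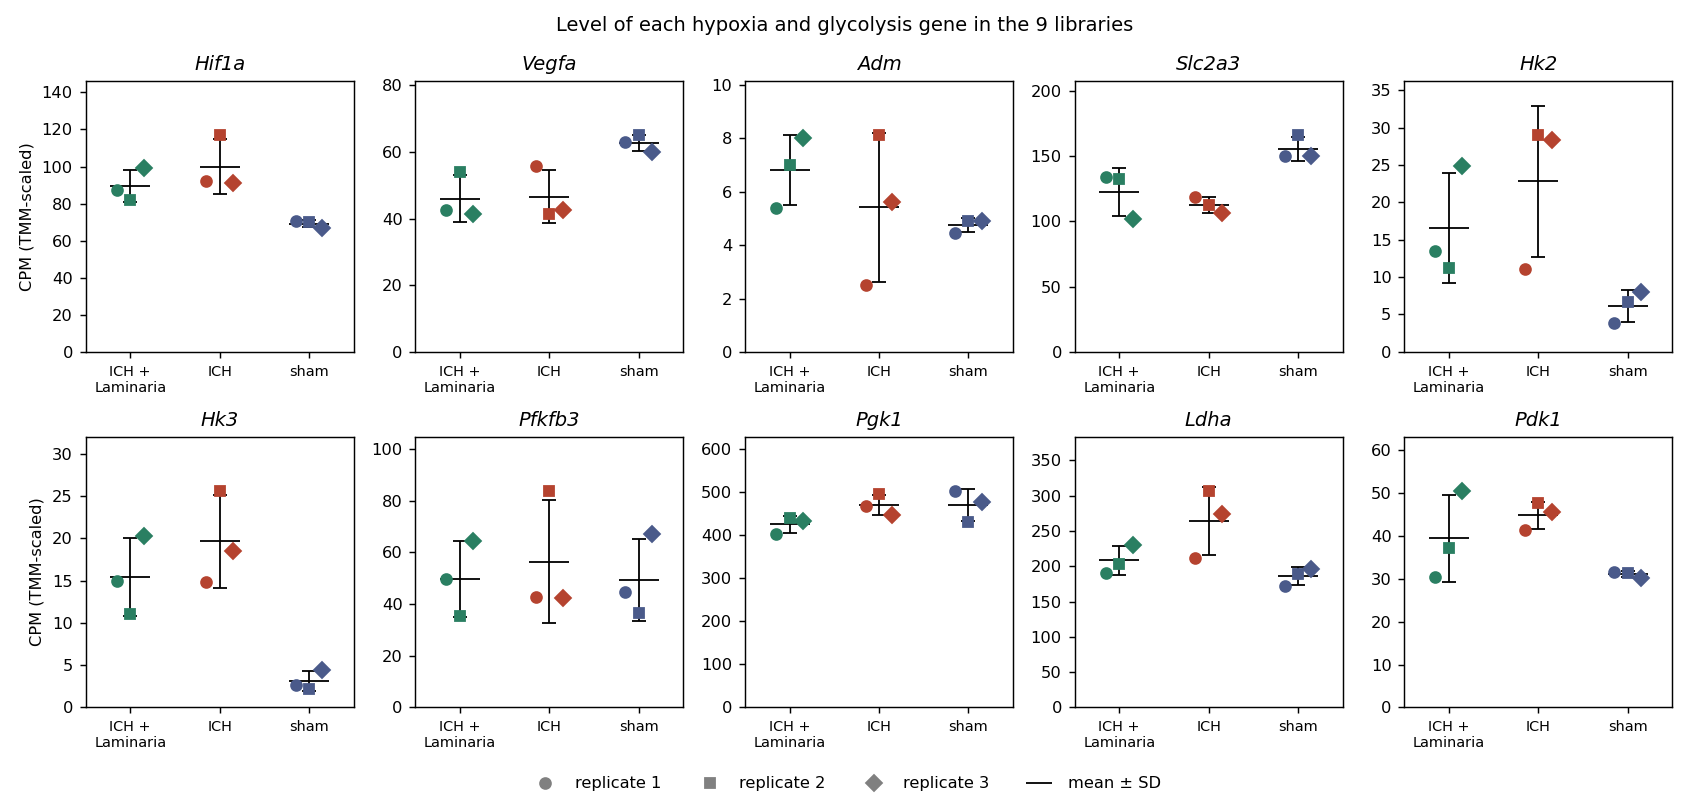
TMM-scaled CPM (vertical axes, from 0) of each of the 10 genes in the ICH + Laminaria, ICH and sham libraries; points are libraries, bars are mean ± SD of 3. All hemorrhage libraries lie above all sham libraries for Hif1a, Hk2 and Hk3 and below them for Vegfa and Slc2a3, while the groups overlap for Pfkfb3.

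Hif1a (ENSMUSG00000021109, chromosome 12, 73901375 to 73947530 on GRCm38), the oxygen-regulated subunit of HIF-1, had 91.9, 116.9 and 91.2 CPM in ICH libraries, against 70.4, 69.8 and 67.1 CPM in sham libraries. The sham libraries were close to each other, and all ICH libraries exceeded them. Hif1a rose 1.47-fold (log2 fold change 0.56 ± 0.11 SE, edgeR adjusted p = 0.0308). With 1 library left out the log2 fold change was 0.41 to 0.60, and the adjusted p was 0.0809 to 0.113 in each set except that without ICH replicate 1, where it was 0.0235.

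Other parts of the HIF machinery gave no call. The 10 listed HIF subunits and regulators were Epas1 (HIF-2 alpha), Hif3a, Arnt, Arnt2, the prolyl hydroxylases Egln1 to Egln3, Vhl, Hif1an and Cited2. All were tested and none rose or fell by the edgeR test, which 10.6% of all genes passed. Of all genes 29.5% had an unadjusted p under 0.05 and DESeq2 called 21.6%, against 2 and 1 of these 10. Their median log2 fold change was -0.10, and 8 of the 10 estimates were negative.

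Vegfa and Adm encode the secreted peptides of the set. Vegfa (ENSMUSG00000023951, chromosome 17, 46016993 to 46032369), the growth factor that drives endothelial sprouting and permeability, had 55.6, 41.4 and 42.7 CPM in ICH libraries, against 63.0, 65.0 and 60.03 CPM in sham libraries. Every ICH library was below every sham library, with ICH replicate 1 closest to them. The difference did not pass the test (log2 fold change -0.40 ± 0.14 SE, edgeR adjusted p = 0.109), and without ICH replicate 1 it did (-0.56, adjusted p = 0.0150). The summed CPM of 8 astrocyte genes was 4791 to 7578 in ICH and 2774 to 3680 in sham libraries. Of those 8 genes 4 rose and 4 did not pass, Slc1a2 among the latter (log2 fold change -0.04 ± 0.12 SE). Gfap weighed heavily in the sum, at a mean of 3510 CPM in ICH and 567.6 CPM in sham libraries. Vegfa and this sum differed in opposite directions, which does not hold for every astrocyte gene.

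Adm (ENSMUSG00000030790, chromosome 7, 110627661 to 110629820), which encodes the vasodilator adrenomedullin, had 2.52, 8.12 and 5.61 CPM in ICH libraries, against 4.44, 4.90 and 4.91 CPM in sham libraries. The ICH libraries lay on both sides of the sham libraries, and their SD was 2.81 CPM against 0.267 CPM in sham. The log2 fold change was 0.21 ± 0.39 SE (edgeR adjusted p = 0.771), and it was -0.21 without ICH replicate 2.

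Some receptors and other ligands of these peptides rose, in a comparison where 10.6% of all genes passed. Of 9 listed VEGF ligands and receptors besides Vegfa, 8 were tested, 3 rose and none fell, with a median log2 fold change of 0.42. Placental growth factor, Pgf, which binds FLT1, had 5.49, 12.3 and 8.48 CPM in ICH libraries, against 2.99, 2.48 and 3.84 CPM in sham libraries (log2 fold change 1.51 ± 0.33 SE, edgeR adjusted p = 0.0372). The co-receptors Nrp1 (0.91 ± 0.21 SE, adjusted p = 0.0420) and Nrp2 (0.86 ± 0.21 SE, adjusted p = 0.0471) rose too. For Kdr, the main VEGF receptor of endothelium, the log2 fold change was 0.69 ± 0.19 SE (adjusted p = 0.0630). Of 6 listed genes for adrenomedullin receptors and a related ligand, 5 were tested and 1 rose. This was Calcrl, the receptor core that binds adrenomedullin when paired with a RAMP protein, with 7.26, 7.83 and 8.56 CPM in ICH libraries, against 4.23, 4.29 and 3.87 CPM in sham libraries (0.96 ± 0.16 SE, adjusted p = 0.0234). Pgf, Nrp1 and Calcrl passed only without ICH replicate 1 when 1 library was left out, and Nrp2 passed in none of the 6 such sets (adjusted p 0.0588 to 0.138). With all libraries kept, the VEGF list had 0 calls with limma on log2(FPKM + 0.1), without a filter on low values and with a replicate block, and 1 call with all 9 libraries in 1 fit. Pgf and Nrp1 passed under 5 of 9 such alternatives, Nrp2 under 4 and Calcrl under 8, the exception for Calcrl being the replicate block (adjusted p = 0.0568). The summed CPM of 8 endothelial genes, such as Cldn5, was 211.9 to 273.0 in ICH and 133.4 to 163.8 in sham libraries, and 3 of those 8 genes rose. The part of these endothelial genes in the receptor values was not tested.

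Slc2a3 (ENSMUSG00000003153, chromosome 6, 122727809 to 122779957) encodes GLUT3, the high-affinity glucose transporter for which neurons are known. Of the 10 genes, Slc2a3 alone has a start or end that differs from the GENCODE M21 annotation. It was the only gene of the 10 that fell by the edgeR test on all 6 libraries, with 119.1, 112.8 and 106.6 CPM in ICH libraries, against 150.3, 166.1 and 150.1 CPM in sham libraries. The groups did not overlap, and both were tight. Slc2a3 fell by 0.44 ± 0.08 SE on the log2 scale, to 0.738 of the sham level (edgeR adjusted p = 0.0298). Its log2 fold change stayed between -0.49 and -0.40 with any 1 library left out, while the adjusted p was 0.0733 to 0.103 except without ICH replicate 1 (0.0183). With all libraries kept, Slc2a3 passed under 5 of 9 alternatives and not with limma at either pseudocount, all 9 libraries in 1 fit or a replicate block (adjusted p up to 0.0700). Pan-neuronal genes were lower in the same libraries. Relative to the sum of those 8 genes, Slc2a3 was 2.81%, 3.50% and 3.57% in ICH libraries, against 2.89%, 3.37% and 3.20% in sham libraries, so that the groups overlapped on this ratio, which was chosen after the values were seen. Of the 8 pan-neuronal genes 1 fell, and all 8 estimates were negative.

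Hk3 (ENSMUSG00000025877, chromosome 13, 55005985 to 55021385), a hexokinase known from myeloid cells, had the largest fold change of the 10 genes. It had 14.9, 25.6 and 18.5 CPM in ICH libraries, against 2.63, 2.19 and 4.44 CPM in sham libraries. The lowest ICH library was well above the highest sham library. Hk3 rose 6.46-fold (log2 fold change 2.69 ± 0.33 SE, edgeR adjusted p = 0.0214). With 1 library left out the log2 fold change was 2.45 to 3.05, and the gene passed without ICH replicate 1 (adjusted p = 0.00774) or sham replicate 3 (0.02905) but not in the other 4 sets (0.0633 to 0.0999). Hk3 overlaps Unc5a on the opposite strand, and reads of the pair might be mixed, because the strand setting of the counting is not given in the sources used here. Unc5a, which had more counts than Hk3, was at 52.9, 50.2 and 52.1 CPM in ICH libraries, against 73.4, 63.9 and 68.6 CPM in sham libraries, which is the opposite direction to Hk3.

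Hk2 (ENSMUSG00000000628, chromosome 6, 82725025 to 82774454), the inducible hexokinase that binds mitochondria, had 11.1, 29.0 and 28.3 CPM in ICH libraries, against 3.86, 6.62 and 7.98 CPM in sham libraries. The groups did not overlap, but ICH replicate 1 was closer to sham replicate 3 than to the other ICH libraries. Hk2 rose 3.75-fold (log2 fold change 1.91 ± 0.43 SE, edgeR adjusted p = 0.0403). The log2 fold change was 1.66 to 2.24 with 1 library left out, and the adjusted p was 0.0799 to 0.128 except without ICH replicate 1 (0.00977).

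The increase of both hexokinases went with that of myeloid genes, of which 10 of 10 rose (median log2 fold change 2.30). Relative to the pan-myeloid sum, Hk2 was 1.29%, 1.64% and 1.75% in ICH libraries, against 1.24%, 1.94% and 1.54% in sham libraries, and the groups overlapped. Hk3 was 1.73%, 1.46% and 1.14% of that sum in ICH libraries, against 0.841%, 0.644% and 0.857% in sham libraries, so this share was higher in every ICH library. The most abundant genes weigh most in the sum. Singly, the 10 myeloid genes rose between 2.32-fold and 7.29-fold, a range that holds the 6.46-fold of Hk3. Whether Hk3 rose beyond the myeloid genes was not tested. Hif1a, as a share of the same sum, was lower in every ICH library (10.7%, 6.63% and 5.64%, against 22.6%, 20.5% and 12.9% in sham libraries). Hif1a itself rose 1.47-fold and each myeloid gene at least 2.32-fold, so a lower share was bound to follow. This share does not measure Hif1a within myeloid cells. These ratios were formed after the values were seen and carry no test. Neutrophil genes were near 0 in sham tissue, where the sum of 10 such genes was 0.157 to 0.270 CPM. In ICH libraries the sum was 2.20 to 38.7 CPM. It was highest in ICH replicate 2, where S100a9 (21.0 CPM) and S100a8 (10.2 CPM) weighed most. Ly6g, Camp and Ngp had no counts in sham libraries, and Elane and Camp had none in ICH libraries. Ly6g, Mpo, Ngp and Ltf were near 0 in ICH libraries too, at means of 0.04 to 0.08 CPM. The part of neutrophils in the Hk3 values was not tested.

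**Figure D2:**
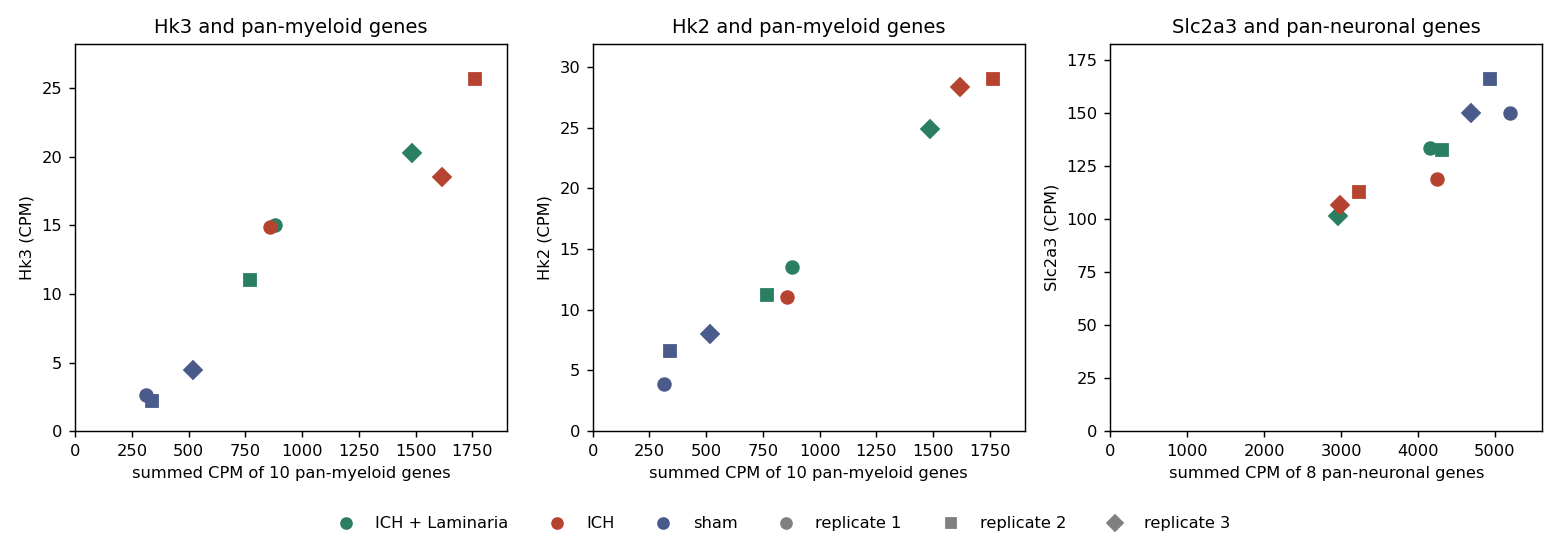
Each point is a library: CPM of Hk3 and Hk2 (vertical axes) against the summed CPM of 10 pan-myeloid genes, and CPM of Slc2a3 against the summed CPM of 8 pan-neuronal genes (horizontal axes), with ICH + Laminaria, ICH and sham in different colours. Hk3 and Hk2 are lowest in the sham libraries, where the pan-myeloid sum is 312.2 to 518.0, and Slc2a3 is highest in them, where the pan-neuronal sum is 4693 to 5201.

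Further down the pathway, 2 enzymes of glycolysis and its control did not pass the test. Pfkfb3 (ENSMUSG00000026773, chromosome 2, 11471433 to 11554077), whose product makes the fructose 2,6-bisphosphate that speeds up phosphofructokinase, had 42.8, 83.8 and 42.4 CPM in ICH libraries, against 44.7, 36.4 and 67.0 CPM in sham libraries. A single library stood high in each group. The log2 fold change was 0.21 ± 0.33 SE (edgeR adjusted p = 0.723), and it was -0.20 without ICH replicate 2.

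Pgk1 (ENSMUSG00000062070, chromosome X, 106187100 to 106203699), phosphoglycerate kinase and the first ATP-forming step of glycolysis, had 468.4, 495.7 and 448.1 CPM in ICH libraries, against 503.3, 429.6 and 476.6 CPM in sham libraries. The groups overlapped, at nearly the same mean (470.7 and 469.9 CPM). The log2 fold change was 0.03 ± 0.09 SE (edgeR adjusted p = 0.883), which is the smallest standard error of the 10 genes after those of Slc2a3 and Pdk1. A processed copy, Pgk1-rs7, held 4305 counts over the 9 libraries against 257651 for Pgk1.

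At the end of the pathway, Ldha (ENSMUSG00000063229, chromosome 7, 46841475 to 46855627), the lactate dehydrogenase subunit that favours lactate formation, had 211.4, 306.9 and 274.4 CPM in ICH libraries, against 171.8, 189.6 and 196.7 CPM in sham libraries. Every ICH library was higher than every sham library. The difference did not reach the threshold (log2 fold change 0.53 ± 0.14 SE, edgeR adjusted p = 0.0580), and without ICH replicate 1 it passed (0.66, adjusted p = 0.0112).

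Pdk1 (ENSMUSG00000006494, chromosome 2, 71873224 to 71903858), the kinase that switches off pyruvate dehydrogenase and so restrains the oxidation of pyruvate in mitochondria, had 41.4, 47.6 and 45.5 CPM in ICH libraries, against 31.6, 31.5 and 30.3 CPM in sham libraries. Both groups were tight and well apart. Pdk1 rose 1.46-fold (log2 fold change 0.55 ± 0.09 SE, edgeR adjusted p = 0.0226). Leaving out 1 library gave 0.49 to 0.60, with an adjusted p of 0.0676 to 0.103 except without ICH replicate 1 (0.0122).

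Genes for lactate and pyruvate handling moved in both directions. Of 11 listed and tested, 2 rose and 1 fell, in a comparison where 7.42% of all genes rose and 3.16% fell. Slc16a3, which encodes the lactate exporter MCT4, had 13.8, 40.9 and 25.4 CPM in ICH libraries, against 3.54, 4.80 and 5.09 CPM in sham libraries (log2 fold change 2.60 ± 0.39 SE, edgeR adjusted p = 0.0226). Slc16a1, which encodes MCT1, had 74.2, 78.2 and 85.0 CPM in ICH libraries, against 45.4, 36.7 and 42.6 CPM in sham libraries (0.95 ± 0.11 SE, adjusted p = 0.0214). Both transporters were higher in every ICH library. Pdp1, the phosphatase that turns pyruvate dehydrogenase back on and so opposes PDK1, had 159.3, 126.4 and 132.6 CPM in ICH libraries, against 216.9, 247.3 and 248.9 CPM in sham libraries, and fell by 0.74 ± 0.12 SE on the log2 scale (adjusted p = 0.0226). With 1 library left out, Slc16a3 and Pdp1 passed only without ICH replicate 1, and Slc16a1 also without sham replicate 3. With all libraries kept, both transporters passed under 9 of 9 alternatives and Pdp1 under 7.

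Most genes of the wider HIF and glycolysis lists did not pass the test, as was the case for all genes tested, of which 10.6% passed. Of 24 other HIF targets, 23 were tested, 2 rose (Slc16a3 and Angptl4), none fell, and the median log2 fold change was -0.06. An unadjusted p under 0.05 was found for 8 of these 23 and for 29.5% of all genes. Angptl4, a secreted inhibitor of lipoprotein lipase, had 12.1, 34.4 and 22.2 CPM in ICH libraries, against 5.409, 6.603 and 5.769 CPM in sham libraries (log2 fold change 1.97 ± 0.36 SE, edgeR adjusted p = 0.0271). Of 14 other glycolytic enzymes, from Hk1 to Pkm and Ldhb, none rose or fell by the edgeR test, 3 had an unadjusted p under 0.05, DESeq2 called 3, 11 estimates were negative, and the median was -0.10. Of the 24 HIF targets, 0 passed without ICH replicate 2 or 3 or any 1 sham replicate, and 5 passed without ICH replicate 1. DESeq2 on all 6 libraries called 7 of them, and 21.6% of all genes.

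**Figure D3:**
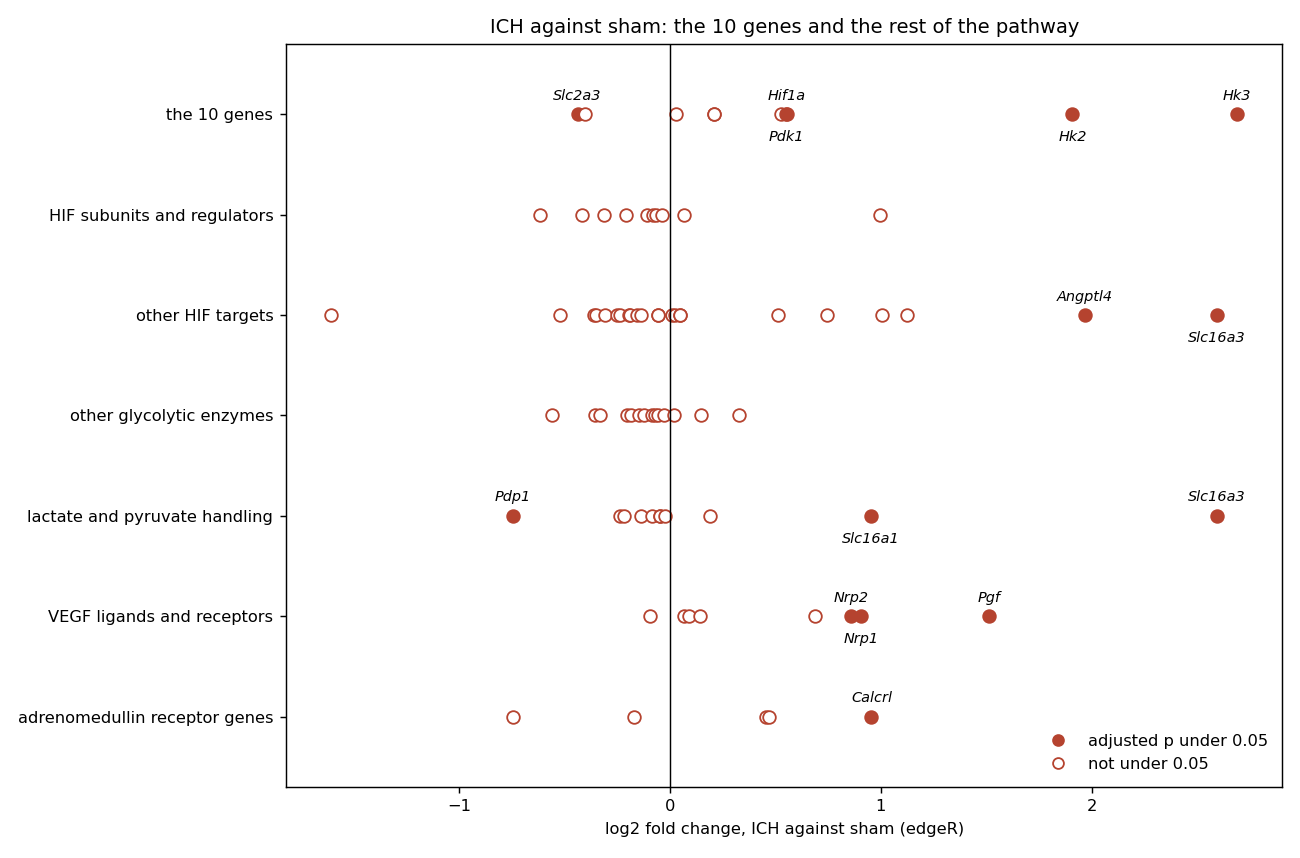
Log2 fold change of ICH against sham (horizontal axis) for the 10 genes and for the tested genes of 6 related lists (rows); filled points have an edgeR adjusted p under 0.05 and are named. Filled points are few outside the 10 genes, and no HIF subunit or regulator and no other glycolytic enzyme has one. Of all genes tested, 10.6% passed.

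FPKM allows genes to be ranked within a group. In ICH libraries the order was Pgk1 (187.0 ± 7.7 FPKM, SD, n = 3), Ldha (71.1 ± 12.6), Hif1a (15.1 ± 2.0), Slc2a3 (13.9 ± 0.8), Vegfa (9.68 ± 1.70), Pfkfb3 (6.61 ± 2.73), Pdk1 (5.13 ± 0.33), Hk3 (4.75 ± 1.28), Hk2 (3.398 ± 1.505) and Adm (2.96 ± 1.52). Neighbours from Hif1a to Slc2a3 and from Vegfa downward overlapped between libraries in that group. In sham libraries it was Pgk1 (178.7 ± 13.2 FPKM, SD, n = 3), Ldha (48.0 ± 3.5), Slc2a3 (18.3 ± 1.2), Vegfa (12.48 ± 0.53), Hif1a (9.70 to 10.16), Pfkfb3 (5.56 ± 1.78), Pdk1 (3.41 ± 0.08), Adm (2.498 ± 0.149), Hk2 (0.879 ± 0.302) and Hk3 (0.712 ± 0.274). There only Hk2 and Hk3 overlapped. Hif1a thus stood below Slc2a3 in all sham libraries and could not be separated from it in ICH libraries. Hk2 and Hk3 were below Adm in all sham libraries, and their ranges overlapped with that of Adm in ICH libraries.

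Several of the genes share an enzymatic role with close relatives, and the share of each relative in the summed FPKM of its family does not depend on how libraries are scaled. Hk1, the main hexokinase of brain, made up 76.5%, 86.0% and 66.9% of hexokinase FPKM in ICH + Laminaria libraries, 77.4%, 64.2% and 76.1% in ICH libraries, and 95.0%, 94.0% and 92.1% in sham libraries. Hk3 made up 12.7%, 7.03% and 15.7% in ICH + Laminaria libraries, 12.4%, 19.4% and 10.8% in ICH libraries, and 1.48%, 1.40% and 2.76% in sham libraries. Hk2 made up 7.03%, 4.42% and 11.9% in ICH + Laminaria libraries, 5.70%, 13.5% and 10.2% in ICH libraries, and 1.34%, 2.63% and 3.07% in sham libraries. Both hemorrhage groups were separated from sham on all 3 shares, although Hk1 remained the most abundant hexokinase in every library. In CPM, Hk1 itself was lower in each ICH library than in each sham library (log2 fold change -0.56 ± 0.17 SE, edgeR adjusted p = 0.0872).

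Ldha made up 16.6%, 16.7% and 17.1% of lactate dehydrogenase FPKM in ICH + Laminaria libraries, 16.6%, 25.0% and 17.8% in ICH libraries, and 12.54%, 11.53% and 11.06% in sham libraries. All of the rest was Ldhb, the subunit that favours pyruvate formation, because Ldhc, the other relative summed, had no counts. The log2 fold change of Ldhb in ICH against sham was -0.36 ± 0.16 SE (edgeR adjusted p = 0.188). For glucose transporters, only Slc2a1, Slc2a3 and Slc2a4 were summed. Slc2a3 made up 23.5%, 23.1% and 13.96% of this summed FPKM in ICH + Laminaria libraries, 24.2%, 13.3% and 16.4% in ICH libraries, and 20.5%, 24.8% and 22.5% in sham libraries. These overlapped in every pair of groups. Pdk1 made up 8.32%, 8.56% and 9.17% of pyruvate dehydrogenase kinase FPKM in ICH libraries, against 5.69%, 6.35% and 6.23% in sham libraries, and Pdk2 was the main form throughout. Pfkfb3 was 47.8%, 57.6% and 39.3% of its family in ICH libraries, against 55.9%, 39.0% and 67.3% in sham libraries, and these overlapped.

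The 4 balances fixed for testing were log2 ratios of FPKM + 0.1 within a library, compared with a two-sided exact permutation test in 12 tests, where 3 against 3 libraries cannot give less than p = 0.1. In ICH against sham, Hk2/Hk1 was higher by 2.314, Hk3/Hk1 by 3.138 and Ldha/Ldhb by 0.875 on the log2 scale, each with exact p = 0.1, the smallest possible, and adjusted p = 0.2. In ICH + Laminaria against sham the same balances were higher by 1.895, 2.780 and 0.607 (exact p = 0.1 and adjusted p = 0.2 each). Each of these 3 balances was higher in 3 of 3 libraries of both hemorrhage groups than in any sham library. The Slc2a3/Slc2a1 difference was -0.44 in ICH against sham (exact p = 0.3, adjusted p = 0.514) and -0.23 in ICH + Laminaria against sham (exact p = 0.7, adjusted p = 0.7). None of the 12 tests could pass at this number of libraries.

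**Figure D4:**
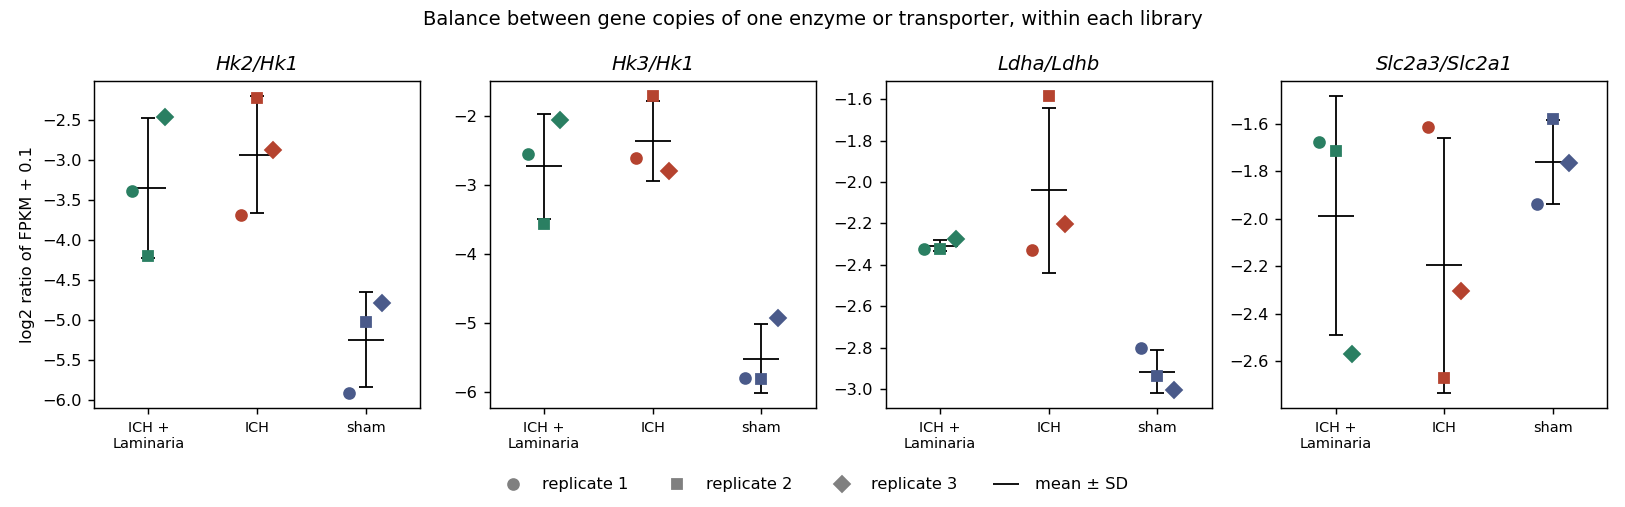
Log2 ratio of FPKM + 0.1 (vertical axes) for Hk2/Hk1, Hk3/Hk1, Ldha/Ldhb and Slc2a3/Slc2a1 in each ICH + Laminaria, ICH and sham library; bars are mean ± SD of 3. The first 3 ratios separate both hemorrhage groups from sham, and the last does not.

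ICH + Laminaria against ICH sets hemorrhage with the agent, labelled day 4, day 5 and day 6, against hemorrhage with its vehicle, labelled day 3. Agent and day cannot be told apart in it. None of the 10 rose or fell by the edgeR test, none had an unadjusted p under 0.05, and DESeq2 called none. Among all 16654 genes tested, 3 (0.018%) passed the edgeR test, 560 (3.36%) had an unadjusted p under 0.05, and DESeq2 called 48 (0.288%). The estimates were negative for 8 of the 10 genes, and the median was -0.15, against -0.002 over all genes. Closest to the threshold was Ldha, with 191.1, 203.0 and 230.6 CPM in ICH + Laminaria libraries, against 211.4, 306.9 and 274.4 CPM in ICH libraries (log2 fold change -0.33 ± 0.15 SE, edgeR adjusted p = 0.951). These groups overlapped. Pgk1 was the only gene without overlap, with 401.7, 439.9 and 434.0 CPM in ICH + Laminaria libraries, against 468.4, 495.7 and 448.1 CPM in ICH libraries (-0.13 ± 0.08 SE, adjusted p = 0.951). Non-overlap was seen for 9.06% of all genes in this comparison.

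For the hexokinases the standard errors were large. Hk2 had 13.5, 11.2 and 24.9 CPM in ICH + Laminaria libraries, against 11.1, 29.0 and 28.3 CPM in ICH libraries (log2 fold change -0.45 ± 0.44 SE, edgeR adjusted p = 0.951). Hk3 had 15.02, 11.02 and 20.24 CPM in ICH + Laminaria libraries, against 14.9, 25.6 and 18.5 CPM in ICH libraries (-0.33 ± 0.28 SE, adjusted p = 0.951). For both genes the SD within each group was larger than the distance between the group means, and in the ICH + Laminaria group the library labelled day 6 was highest for both. Adm (0.35 ± 0.41 SE) and Slc2a3 (0.14 ± 0.13 SE) had positive estimates. The other 4 genes had log2 fold changes from -0.17 for Pdk1 to -0.004 for Vegfa. The pan-myeloid genes were in the same position: none of 10 passed the edgeR test, had an unadjusted p under 0.05 or was called by DESeq2, and their median log2 fold change was -0.45.

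ICH + Laminaria against sham shares its 3 sham libraries with the first comparison, so the values are given side by side and not as independent evidence. None of the 10 genes passed the edgeR test here, where 3 of 16405 genes did (0.0183%). An unadjusted p under 0.05 was found for 6 of the 10 genes and for 2944 genes in all (17.9%). DESeq2 called 1326 genes (8.08%), among them Hk3, Hk2 and Hif1a as higher and Vegfa as lower. Without overlap were 4 genes that were higher (Hk3, Hk2, Hif1a and Adm) and 2 that were lower (Vegfa and Slc2a3), while 28.5% of all genes did not overlap.

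Hk3 had 15.02, 11.02 and 20.24 CPM in ICH + Laminaria libraries, against 2.63, 2.19 and 4.44 CPM in sham libraries (log2 fold change 2.35 ± 0.34 SE, edgeR adjusted p = 0.0917). Hk2 had 13.5, 11.2 and 24.9 CPM in ICH + Laminaria libraries, against 3.86, 6.62 and 7.98 CPM in sham libraries (1.45 ± 0.38 SE, adjusted p = 0.139). As in the ICH group, both hexokinases were above sham in every library. Hif1a had 87.2, 82.1 and 99.2 CPM in ICH + Laminaria libraries, against 70.4, 69.8 and 67.1 CPM in sham libraries (0.40 ± 0.10 SE, adjusted p = 0.124). Vegfa had 42.7, 54.1 and 41.2 CPM in ICH + Laminaria libraries, against 63.0, 65.0 and 60.03 CPM in sham libraries (-0.42 ± 0.12 SE, adjusted p = 0.160). Vegfa was thus below every sham library in both hemorrhage groups, without an edgeR call in either. Slc2a3 had 133.8, 132.6 and 101.7 CPM in ICH + Laminaria libraries, against 150.3, 166.1 and 150.1 CPM in sham libraries (-0.32 ± 0.13 SE, adjusted p = 0.263).

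Adm had 5.41, 7.00 and 8.01 CPM in ICH + Laminaria libraries, against 4.44, 4.90 and 4.91 CPM in sham libraries (log2 fold change 0.54 ± 0.20 SE, edgeR adjusted p = 0.232), and so it was separated from sham in this group and not in the ICH group. The difference between these 2 effects is the comparison of ICH + Laminaria with ICH, in which Adm did not pass. Pdk1 and Ldha, which were separated from sham in the ICH group, overlapped with it here: Pdk1 had 30.4, 37.3 and 50.6 CPM in ICH + Laminaria libraries (0.37 ± 0.18 SE, adjusted p = 0.341), and Ldha differed by 0.19 ± 0.10 SE (adjusted p = 0.389). Pfkfb3 (0.04 ± 0.29 SE) and Pgk1 (-0.12 ± 0.10 SE) were close to sham. Of the 76 tested genes on the HIF, glycolysis, lactate, VEGF and adrenomedullin receptor lists, none rose or fell by the edgeR test in ICH + Laminaria against sham, where 22 had an unadjusted p under 0.05 and DESeq2 called 7. None did so in ICH + Laminaria against ICH, where 0 had an unadjusted p under 0.05 and DESeq2 called 0.

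**Figure D5:**
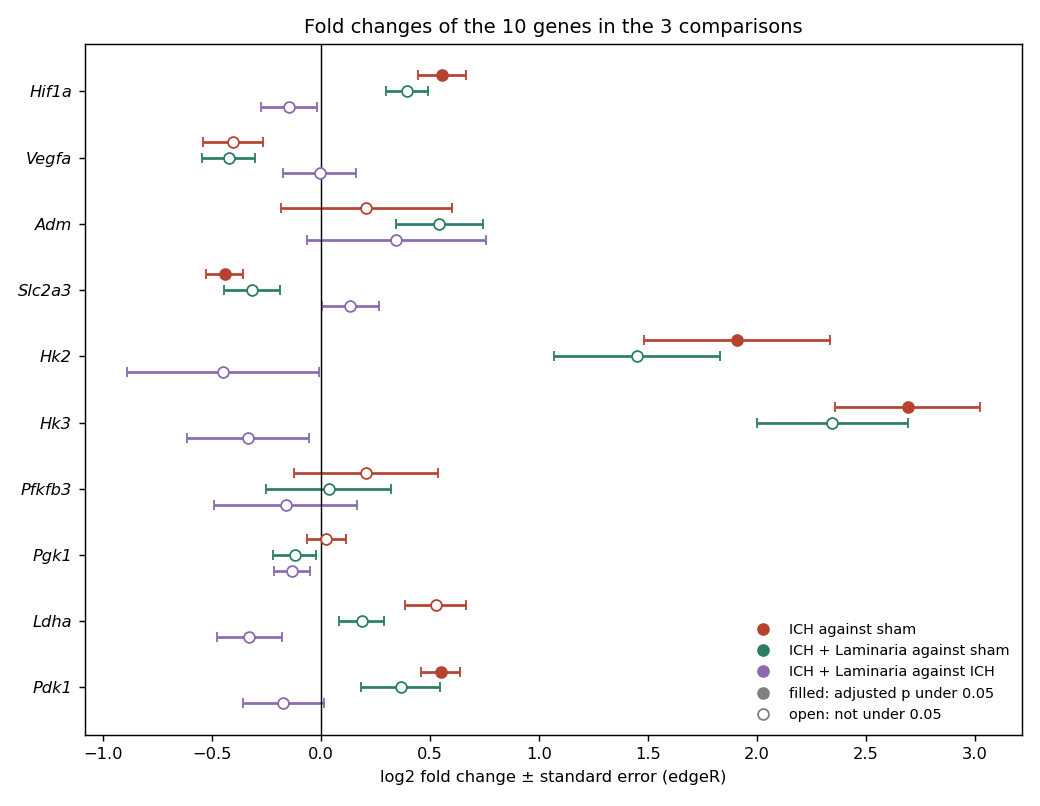
Log2 fold change ± standard error (horizontal axis) of the 10 genes in ICH against sham, ICH + Laminaria against sham and ICH + Laminaria against ICH; filled points have an edgeR adjusted p under 0.05. Filled points occur in ICH against sham only (Hif1a, Slc2a3, Hk2, Hk3 and Pdk1), and the estimates of ICH + Laminaria against ICH lie between -0.45 for Hk2 and 0.35 for Adm.

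In both hemorrhage groups, many of the genes were highest in the same library. ICH replicate 2 had the highest CPM of its group for 8 of the 10 genes, all but Vegfa and Slc2a3, and also the highest pan-myeloid sum (1763) and the highest erythroid sum (143.0 CPM, against 33.2 and 26.6 CPM in the other ICH libraries). ICH replicate 1 had the lowest CPM for 5 genes (Adm, Hk2, Hk3, Ldha and Pdk1), the lowest pan-myeloid sum (857.9) and the highest pan-neuronal sum (4245) of its group. In the ICH + Laminaria group, the library labelled day 6 was highest for 7 genes and lowest for Vegfa and Slc2a3, and it also had the highest pan-myeloid sum (1486) and the lowest pan-neuronal sum (2956). Its Pdk1 level, 50.6 CPM, was the highest of the 9 libraries. In the sham group the highest values were spread over replicates 1, 2 and 3, for 3, 2 and 5 genes. Vegfa and Slc2a3 were the exceptions in both hemorrhage groups, being highest in libraries where most of the other genes were not. With 1 library per labelled day, day and library cannot be told apart.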

How the data were processed

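RNA sequencing reads of 9 mouse libraries were processed by the authors, with HISAT2 2.0.4, StringTie 1.3.4, cutadapt 1.9 and FastQC 0.10.1 named in the submitters' processing notes. The notes name the rat build Rnor_6.0, whereas the gene identifiers and coordinates of the table are mouse: 94.23% of 55141 matched rows had the same start and end as in GENCODE M21 on GRCm38. The strand setting, annotation release and way of counting were not given in the sources used here. Whole-number counts and FPKM per gene were deposited by the authors in 1 table. FPKM of 0.0001, which stood where the count was 0, was set to 0. The counts were not in steps of 1 (median step 3.73), so dividing them by the step was tried as an alternative.

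Counts were tested as deposited with the edgeR 4.0.16 quasi-likelihood test (R 4.3.3) with TMM scaling, on the 6 libraries of each comparison, for genes whose mean FPKM reached 0.5, at a Benjamini-Hochberg adjusted p under 0.05. Alternatives were limma 3.58.1 on log2(FPKM + 1) and log2(FPKM + 0.1), DESeq2 1.42.0, other scaling and filters, all 9 libraries in 1 fit, a replicate block, and each library left out. The scripts were tested on simulated data. CPM levels used TMM factors over all 9 libraries. Python 3.11.15 was used for ratios and motifs.

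The 10 genes and all lists were chosen with earlier results of these data known. Named were all 10 genes, and of each pathway list the 4 genes with the largest log2 fold change among those that passed in ICH against sham, with any that passed in the opposite direction. Relatives of the 10 genes and VEGF and adrenomedullin receptor genes could also be named, and of each marker list the sum and up to 3 abundant genes. Promoter stretches overlapping an annotated exon were not printed. 1 gene of the HIF target list is not reported here and is left out of the counts of that list.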

Additional observations from a re-analysis of the deposited data

How the results depend on the processing

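The 10 genes gave 5 calls in ICH against sham and none in the other comparisons with the edgeR test as described. In ICH against sham the number of the 10 genes called was 3 with limma on log2(FPKM + 1) (8.19% of all genes), 2 with log2(FPKM + 0.1) (6.46%), 3 without a filter on low values (4.11%) and 3 with all 9 libraries in 1 fit (8.29%), and 0 to 7 with 1 library left out. Hk3 was called under every alternative that kept all libraries, Pdk1 under 7 of 9, Hk2 and Hif1a under 6 and Slc2a3 under 5. The whole table gave 1737 calls, 1061 with limma on log2(FPKM + 0.1), 3547 with DESeq2, and 0 to 2741 with 1 library left out. The share of these that were higher, 70.1% with edgeR, was 83.2% and 88.3% with limma, 57.8% with DESeq2 and 63.3% with DESeq2 size factors. In ICH + Laminaria against ICH, genes called numbered 3, and 6 with limma on log2(FPKM + 0.1), 48 with DESeq2, 1 with all 9 libraries in 1 fit, and 0 to 1 with 1 library left out, none of them among the 10 genes. In ICH + Laminaria against sham they numbered 3, and 5 and 1 with limma at the larger and smaller pseudocount, 1326 with DESeq2 (4 of the 10 genes), 0 with DESeq2 size factors, 0 without a filter, 0 with the edgeR count filter, 9 with counts divided by the step, 16 with all 9 libraries in 1 fit, and 0 to 9 with 1 library left out. The cause of these differences was not tested.

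Among the 10 genes, signs turned only where the gene was not called. In ICH against sham, Pgk1 was at -0.008 both without a filter and with the edgeR count filter, and with 1 library left out Pgk1 ranged from -0.049 to 0.079, Adm from -0.213 to 0.545 and Pfkfb3 from -0.203 to 0.492. In ICH + Laminaria against ICH, Vegfa was at 0.001 and 0.002 with limma and ranged from -0.122 to 0.151, and Pfkfb3 from -0.391 to 0.229. In ICH + Laminaria against sham, Pfkfb3 ranged from -0.198 to 0.317. With 1 library left out, the differences of ICH + Laminaria against ICH ranged from -0.864 to 0.009 for Hk2/Hk1, -0.690 to 0.058 for Hk3/Hk1, -0.412 to -0.040 for Ldha/Ldhb and -0.028 to 0.504 for Slc2a3/Slc2a1, and that of Slc2a3/Slc2a1 against sham from -0.381 to 0.065 in ICH + Laminaria and from -0.730 to -0.199 in ICH. Against sham the others kept their sign: 1.450 to 2.323 in ICH + Laminaria and 1.962 to 2.693 in ICH for Hk2/Hk1, 2.448 to 3.196 in ICH + Laminaria and 2.809 to 3.428 in ICH for Hk3/Hk1, and 0.562 to 0.665 in ICH + Laminaria and 0.647 to 1.019 in ICH for Ldha/Ldhb.

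The same replicate numbers occur in each group, but no pairing is stated. Between ICH and sham, the correlation of same-numbered deviations from the group means was 0.123, -0.044 and 0.101 for replicates 1, 2 and 3. The highest correlation with another number was 0.02, 0.071 and 0.024. Values this low cannot decide whether the libraries were paired. With a replicate block, 839 genes (5.11%) were called in ICH against sham, 2 of them among the 10 genes (Hk2 and Hk3), 0 in ICH + Laminaria against ICH, and 302 in ICH + Laminaria against sham, 1 of them among the 10 genes (Hk3).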
